A study of Mus musculus with 2 samples.

Results

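Regulators of G protein signalling (RGS) were examined in regulatory T cells (Tregs) from the spleen and the lung of BLM-administered mice. The members were the rows of 8 gene symbols, Rgs1, Rgs2, Rgs3, Rgs10, Rgs14, Rgs16, Rgs18 and Rgs19, and all 8 were found among the 24346 symbols listed for both libraries, which include 22 Rgs genes in all. GFP+CD4+ cells were sorted on day 15 after bleomycin (BLM) from FDG mice (genotype Foxp3-DTR-GFP), in which the endogenous Foxp3 locus, the gene of the Treg-defining transcription factor, drives GFP. Cells pooled from 3 mice gave 1 library of splenic Tregs and 1 library of lung Tregs. Both groups thus share the reporter allele, the treatment and the day, and no untreated animals enter the comparison. The mice given BLM were 10 to 16 weeks of age, per the methods. With a single library per tissue, differences could not be held against replicates, and none carries a p-value.

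The heterotrimeric G proteins relay signals from chemokine, lipid and nucleotide receptors on T cells, with the α subunit active while it holds GTP. RGS proteins bind the active α subunit and speed its GTP hydrolysis, which ends the signal of that subunit and of the freed βγ dimer. In lymphocytes they are best known as brakes on chemokine-directed migration. Rgs1, Rgs2, Rgs3, Rgs16 and Rgs18 belong to the R4 (B) subfamily, Rgs10 and Rgs14 to the R12 (D) subfamily, and Rgs19 to the RZ (A) subfamily.

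Of the 8 members, 4 lie on chromosome 1 of GRCm38 (mm10). Rgs2 (minus strand, chr1:143999338-144004161), Rgs1 (minus strand, chr1:144242296-144249242) and Rgs18 (minus strand, chr1:144752683-144775435) share a stretch of 776 kb whose 5 protein-coding genes are all Rgs genes, the others being Rgs13 and Rgs21. Rgs16 (plus strand, chr1:153740349-153745468) starts 8.96 Mb beyond the end of Rgs18. Rgs19 is on chromosome 2 (minus strand, chr2:181688419-181693977), Rgs3 on chromosome 4 (plus strand, chr4:62559847-62704001), Rgs10 on chromosome 7 (minus strand, chr7:128373621-128418758) and Rgs14 on chromosome 13 (plus strand, chr13:55369732-55384687). These spans are those of the GENCODE M21 genes, and all 8 are protein-coding.

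The 250 bases before the RefSeq start (GRCm38.p6) are shown for Rgs2, the member with the largest ratio between the tissues, and for Rgs16, an R4 gene of the same chromosome with nearly equal values. Each sequence is written 5′ to 3′ on the strand of its gene, and capitals mark the GC box (GGGCGG or its reverse complement, searched on both strands), which in Rgs16 occurs as an overlapping pair. The first window is chr1:144004150-144004399 on the minus strand and the second is chr1:153740103-153740352 on the plus strand.
Rgs2: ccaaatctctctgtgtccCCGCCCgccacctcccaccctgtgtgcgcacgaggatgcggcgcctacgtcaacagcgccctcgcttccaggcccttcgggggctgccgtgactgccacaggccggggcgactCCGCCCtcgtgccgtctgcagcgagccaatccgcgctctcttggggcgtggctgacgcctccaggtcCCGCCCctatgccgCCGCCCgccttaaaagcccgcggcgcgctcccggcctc
Rgs16: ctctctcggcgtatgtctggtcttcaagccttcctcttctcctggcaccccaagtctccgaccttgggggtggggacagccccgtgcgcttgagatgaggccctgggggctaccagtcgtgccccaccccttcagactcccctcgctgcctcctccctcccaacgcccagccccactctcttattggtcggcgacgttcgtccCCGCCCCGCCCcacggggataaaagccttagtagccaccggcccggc

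The Rgs2 window held 4 GC boxes, beginning 232, 119, 52 and 38 bases before the start, and the Rgs16 window held 2, at 47 and 42 bases. Of 32851 promoter windows of this length, 32.7% held at least 1 GC box and 4.09% held at least 4. The G and C content was 72.4% in the Rgs2 window and 66.4% in the Rgs16 window, against a median of 52.4% over all windows. Promoter windows were at hand for 5 of the 8 members, in 8 windows (Rgs2, Rgs16, Rgs10, 2 of Rgs3 and 3 of Rgs19), and 6 of the 8 held a GC box. None of the 8 held the AP-1 letters TGANTCA, the CRE letters TGACGTCA or the RUNX letters TGTGGT, which 6.75% (AP-1), 1.55% (CRE) and 14.05% (RUNX) of all windows held. The NFAT core GGAAA, the TATA letters TATAAA, the ETS core CCGGAA and the KLF letters CACCC were also searched on both strands. Of these the Rgs2 window held CACCC once and the Rgs16 window held it 3 times, and 52.01% of all windows hold it at least once. A match or its absence describes these letters in this window only. Rgs1, Rgs14 and Rgs18 had no entry.

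Levels are deposited FPKM, a fragment count corrected for transcript length, so they can be compared between genes. They are also scaled for the library, in a way that the sources used here do not give in full. The FPKM of all symbols summed to 599633 (spleen) and 808853 (lung). Foxp3 was at 18.7 FPKM in spleen and at 41.8 FPKM in lung, Cd4 at 195 and 179, and Cd3e at 513 and 369, so the sorted cell type was represented in both. Low values gave the worth of 1 read per effective kb of transcript as 0.0964 FPKM (spleen) and 0.0849 FPKM (lung). Intervals below are 95% intervals from reads estimated this way with the shortest transcript length, exact Poisson for a level and exact binomial (Clopper-Pearson) for a ratio. They cover counting error only, do not include variation between mice, and count PCR copies separately.

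Rgs1 was the most abundant RGS transcript in both libraries. This gene, first described in activated B cells, limits responses to chemokines that signal through Gi. Its level was 394 FPKM in splenic Tregs (interval 383 to 406) and 742 FPKM in lung Tregs (728 to 757), which placed it at rank 240 and rank 171 among all symbols. The lung value was 1.88-fold the splenic one (interval 1.82 to 1.95), just under the 2-fold line used here for description. Among 140 genes at a like level, meaning a mean log2 FPKM within 0.5 of that of Rgs1, 12.9% had a higher ratio. The estimate of its reads depended on the transcript, between 4585 and 14851 in spleen and between 9803 and 31751 in lung, because the RefSeq gene ends before the GENCODE transcript does.

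Rgs2 had the largest ratio of the 8. Its protein prefers Gq over Gi, and the gene is known as a rapid response gene of stimulated lymphocytes and of cells exposed to cAMP. It was at 50.7 FPKM in spleen (48.1 to 53.4) and at 206 FPKM in lung (201 to 210.5), from about 1472 and 6776 reads. The lung level was 4.05-fold the splenic level (interval 3.83 to 4.29), a log2 ratio of 2.02. Of 744 genes at a like level, 24 (3.23%) had a higher ratio. Its rank by FPKM went from 2026 in spleen to 604 in lung.

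The other R4 members had similar levels in the tissues as deposited. Rgs16, an activation-induced regulator of Gi and Gq in T cells, was at 12.7 FPKM in spleen against 11.1 in lung, a ratio of 0.871 with an interval from 0.735 to 1.03 that includes equality. An antisense transcript, Gm28513, shares 236 exon bases with Rgs16 in the annotation and is not among the listed symbols. The cDNA protocol does not keep the strand, so reads of the pair cannot be told apart. Rgs3, whose long form carries a PDZ domain beside the RGS domain, was at 22.6 FPKM in spleen against 25.5 in lung, a ratio of 1.13 (1.01 to 1.26). It has 4 RefSeq-linked transcripts of 2752 to 4698 nt, which the gene-level values do not separate. Rgs18, the regulator of platelets and their precursors, was the lowest member at 1.99 FPKM in spleen and 2.52 in lung. Its ratio of 1.27 had a wide interval from 0.831 to 2.01, since it rested on about 37.4 and 53.9 reads.

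**Figure D1:**
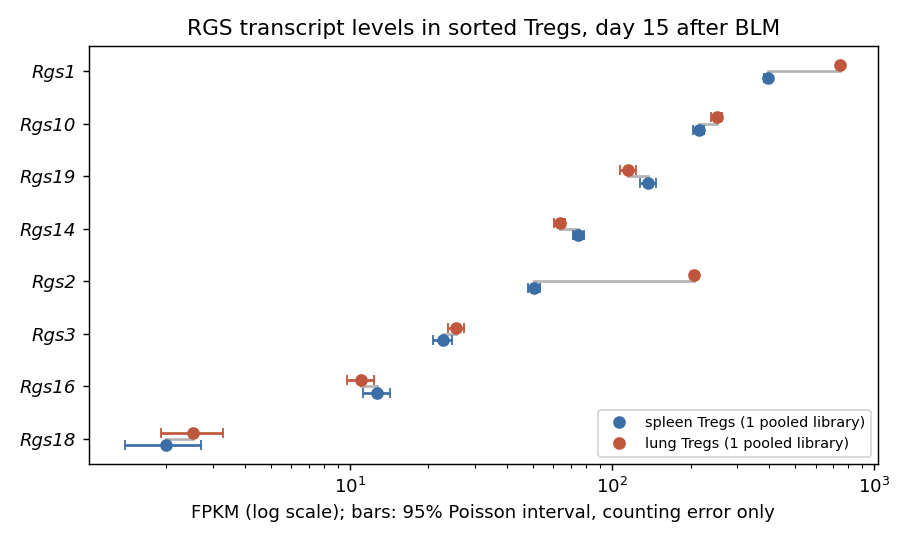
Levels of the 8 RGS genes in FPKM (log axis) in the splenic (blue) and the lung (red) library, with bars for the 95% Poisson interval of counting error and a grey line joining the pair. Rgs2 spans 50.7 to 206 FPKM and Rgs1 spans 394 to 742, whereas the pairs of the other 6 genes lie close together.

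The R12 and RZ members were abundant and, as deposited, nearly equal in the tissues. Rgs10, a small protein that consists mainly of the RGS domain and acts on Gi subunits, was at 215 FPKM in spleen against 251 in lung, a ratio of 1.17 (1.09 to 1.25). Rgs14, a scaffold that also binds Ras-like GTPases and GDP-bound Gi, was at 74.5 FPKM in spleen against 63.4 in lung, a ratio of 0.851 (0.794 to 0.912). Rgs19, also known as GAIP and the member with most annotated transcripts here, 6 of them from 779 to 1511 nt, was at 138 FPKM in spleen against 116 in lung, a ratio of 0.842 (0.761 to 0.929). The counting intervals of these 3 ratios did not reach 1, but each ratio lay between the 5th and the 95th percentile of genes at a like level. Among such genes, 61.6% had a higher ratio than Rgs10, 24.3% a lower one than Rgs14 and 19.0% a lower one than Rgs19.

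Across the family, 1 of the 8 members, Rgs2, was more than 2-fold higher in lung and 0 were more than 2-fold lower. Of the 12094 genes that reached 1 FPKM in a library, 17.8% were more than 2-fold higher in lung and 15.5% more than 2-fold lower. Rgs18 apart, every member reached 10 FPKM, and among all 7279 genes that did so in a library the shares were 11.6% and 9.15%, against 1 and 0 of 7 members. The number higher is thus near that of genes in general. None of the 8 passed the 20-fold threshold that the study applied to its bulk comparison, which 1.62% of all symbols passed. The median log2 ratio of the members was 0.20, and that of all genes at 1 FPKM or more was 0.03. By direction alone, 5 members were higher in lung and 3 were lower.

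**Figure D2:**
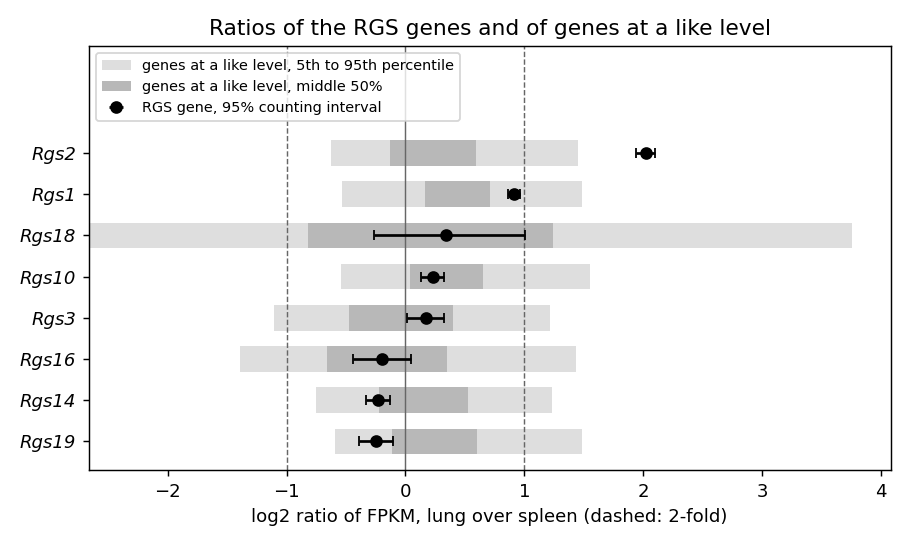
Log2 ratio of FPKM, lung over spleen, for each RGS gene (black points, with 95% counting intervals), over the ratios of genes at a like level (light grey, 5th to 95th percentile, and dark grey, middle 50%). Rgs2, at 2.02, lies beyond the light band, which ends at 1.45, and the other 7 points lie within theirs.

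The make-up of the RGS transcripts within each library does not depend on how the libraries were scaled. Rgs1 made up 43.4% of the summed FPKM of the 8 members in spleen and 52.4% in lung. Rgs2 went from 5.58% in spleen to 14.5% in lung, while Rgs10 went from 23.6% to 17.7%, Rgs19 from 15.1% to 8.16% and Rgs14 from 8.19% to 4.47%. Rgs3, Rgs16 and Rgs18 together stayed the smallest part in both. In spleen Rgs19 was 2.71 times Rgs2, and in lung Rgs2 was 1.78 times Rgs19. Rgs1 was 7.78 times Rgs2 in spleen and 3.61 times in lung, so that Rgs2 per Rgs1 was 2.15-fold higher in lung.

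The order of levels in spleen was Rgs1, Rgs10, Rgs19, Rgs14, Rgs2, Rgs3, Rgs16 and Rgs18. In lung, Rgs2 moved from the fifth place to the third, above Rgs19 and Rgs14, and the remaining order was the same. No neighbours in either order had overlapping counting intervals, for example Rgs10 (240.4 to 263 FPKM) and Rgs2 (201 to 210.5) in lung. As deposited, the sum of the 8 members was 909 FPKM in spleen and 1418 in lung, 1.56-fold. Without Rgs1 and Rgs2, the sum of the other 6 was nearly equal, at 1.01-fold. Unlike the shares, these ratios of sums change with the scaling, and both are lower with TPM. The 3 members of the chromosome 1 cluster took 49.2% of the sum of all 8 in spleen and 67.1% in lung. Rgs1 and Rgs2 account for this rise, as the share of Rgs18 was 0.219% in spleen and 0.178% in lung.

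**Figure D3:**
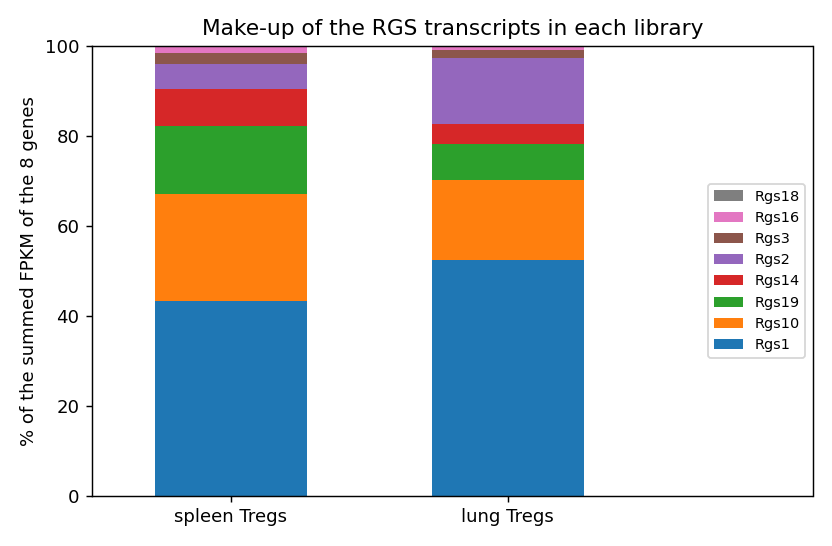
Share of each RGS gene in the summed FPKM of the 8 genes (stacked bars in percent) in the splenic and the lung library. The Rgs2 segment is 5.58% in spleen and 14.5% in lung, and Rgs1 is the largest segment in both.

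Scaling between the libraries moved every ratio together. When both were rescaled to TPM (an equal sum in each), log2 ratios were lower by 0.43, Rgs2 was 3.01-fold and Rgs1 1.40-fold higher in lung, and Rgs3, Rgs10 and Rgs18 were lower in lung instead of higher. When the lung library was scaled so that 8 T cell genes had a median ratio of 1, Rgs2 was 4.76-fold and Rgs1 2.21-fold higher. That setting was chosen after seeing the data. Of the 8 members, 2 were then more than 2-fold higher, as were 22.2% of all genes at 1 FPKM or more. Rgs2 was past 2-fold with every scaling tried. The floors and pseudocounts tried lie far below its levels and could not have changed this. The directions of Rgs3, Rgs10, Rgs16 and Rgs18 depended on the scaling. Rgs14 and Rgs19 were lower in lung with each scaling, by an amount that varied. Their log2 ratios were -0.66 and -0.68 with TPM, and -0.0027 and -0.019 with the T cell scaling.

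**Figure D4:**
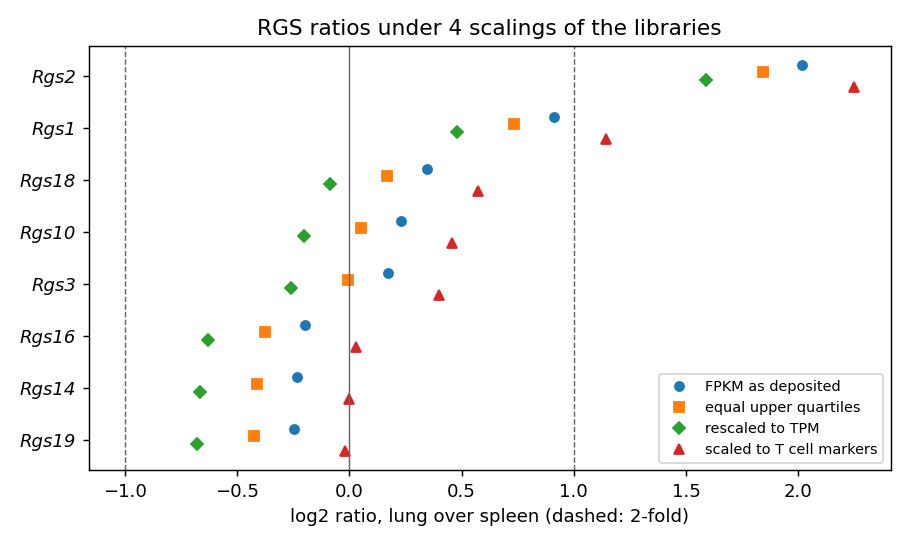
Log2 ratio, lung over spleen, of each RGS gene with the FPKM as deposited (circles), equal upper quartiles (squares), TPM (diamonds) and scaling to T cell markers (triangles). Rgs2 runs from 1.59 to 2.25 and Rgs1 from 0.48 to 1.14, and Rgs3, Rgs10, Rgs16 and Rgs18 have points on either side of 0.

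The other 14 Rgs genes were low or absent from the values. Of these, 8 were listed at 0 in both libraries, among them the neuronal and retinal R7 gene Rgs7, the pericyte gene Rgs5, and Rgs21 of the chromosome 1 cluster. Only 4 reached 1 FPKM in either library. Rgs11 was at 7.35 FPKM in spleen against 9.31 in lung, Rgs12 at 1.32 and 0.808, and Rgs9 at 1.83 and 0.671. Rgs4, a regulator studied mostly in brain and heart, was at 3.42 FPKM in lung, about 110 reads, and at 0 in spleen, where a count of 0 allows up to 0.106 FPKM (3 reads). The lung value of Rgs4 was thus 32.3-fold that limit as deposited, a figure that leaves out the counting error of the lung value. Rgs4 is among the 1.62% of symbols past 20-fold. Rgs13, a gene of germinal centre B cells and mast cells that lies between Rgs2 and Rgs1, was at 0.150 FPKM in spleen, about 2.02 reads, and at 0 in lung. The 8 members held 98.8% of the FPKM of all listed Rgs genes in spleen and 99.0% in lung.

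Markers of other cells differed between the libraries as well. All 12 macrophage markers were higher in lung (10 with TPM), 9 of them by more than 2-fold, and none was at 0, with a sum of 781 FPKM in spleen and 27547 in lung, of which Lyz2 gave 376 and 24947. Csf1r, of the same list, was at 43.8 and 50.1 FPKM. Of the neutrophil markers, 6 of 7 were higher in lung (sums of 437 and 1208 FPKM) and Ltf was at 0 there. All 8 B cell markers were lower in lung as deposited (262 and 138). Of the 8 T cell markers 6 were lower (4188 and 4017), and of the 6 Treg markers 4 were higher (1328 and 2666). Rgs1, Rgs2 and other members are also expressed by myeloid and B cells, and the part of these cells in the RGS values was not tested. In these bulk libraries, fewer cells of a type and less RNA per cell cannot be told apart.

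Platelet markers were counted because platelets express Rgs18. Of 8 platelet and megakaryocyte markers, 7 were at 0 in lung, Itga2b and Gp9 included, and all 8 were above 0 in spleen, with Itga2b at 2.21 FPKM and Gp9 at 3.36. Pf4, of the same list, was at 10.2 FPKM in spleen against 65.5 in lung. The list summed to 26.8 FPKM in spleen and 65.5 in lung, and the part of platelets or other cells in the Rgs18 values was not tested. The remaining lists were low, with sums of 3.57 and 2.95 FPKM for 7 mast cell markers, of which Mcpt4 was at 0 in both libraries and Tpsb2 in lung, 3.16 and 5.98 for 8 smooth muscle and pericyte markers, and 28.7 and 35.1 for 7 NK cell markers. The smooth muscle and pericyte markers Pdgfrb, Cspg4 and Cnn1 were at 0 in both libraries, Des and Notch3 in spleen and Myh11 in lung. The NK cell markers Ncr1 and Klra8 were at 0 in lung. As deposited, 2 mast cell markers were higher in lung and 4 lower, and 4 smooth muscle and pericyte markers were higher and 1 lower. Of the NK cell markers 3 were higher and 4 lower, with Gzma at 13.1 and 19.5 FPKM and Klra8 at 0.000576 in spleen.

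Among the abundant α subunit genes, few differences passed 2-fold as deposited. Gnai2, the main Gi subunit of lymphocytes, was at 329 FPKM in spleen against 318 in lung, Gnai3 at 92.3 and 76.4, and Gnas, the Gs subunit that stimulates cAMP synthesis, at 286 and 365. Gnaq, a partner of Rgs2, was low at 4.91 and 5.35 FPKM. Of 11 α subunit genes at 1 FPKM or more, 2 were more than 2-fold higher in lung and 1 lower. Their median log2 ratio was -0.05, against -0.48 with TPM (3 higher and 8 lower) and 0.18 with the T cell scaling. Gna15, a Gq-class subunit of blood cells, was at 13.2 FPKM in spleen against 50.5 in lung, 3.83-fold. The others were low genes, Gnai1, at 0 in spleen and 2.39 FPKM in lung, and Gna14, at 1.25 in spleen and 0 in lung. Of all genes at 1 FPKM or more, 17.8% were more than 2-fold higher in lung as deposited and 15.5% lower. With TPM these shares were 13.1% and 25.9%. They stand beside the counts of this list and of those that follow.

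Among 10 βγ subunit genes at that level, 2 were more than 2-fold higher and 0 lower, with a median of 0.51 (1 higher, 2 lower and 0.08 with TPM). They were Gngt2, at 51.8 FPKM in spleen and 203 in lung, and Gng2, at 11.9 and 25.2. The most abundant, Gng5, was at 685 and 1231 FPKM. Of the G protein-coupled receptor kinases and arrestins, which desensitise the receptors themselves, 1 of 6 was more than 2-fold higher and 0 lower, with a median of -0.36 (1 higher, 3 lower and -0.79 with TPM). Grk6 was at 142 FPKM in spleen against 85.8 in lung, Grk2 (listed as Adrbk1) at 69.6 and 45.3, and Arrb2 at 49.6 and 33.1, while Grk3 (Adrbk2) was at 0.607 and 2.66.

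Other proteins with an RGS homology domain had lower values in lung more often than not. Of 9 such genes, 8 were lower in lung, 3 of them by more than 2-fold, and the median log2 ratio was -0.64. It was -1.08 with TPM and -0.41 with the T cell scaling. Arhgef1, a guanine nucleotide exchange factor that acts downstream of Gα13 in lymphocytes, was at 355 FPKM in spleen against 196 in lung. Axin1, the scaffold of β-catenin turnover, was at 32.7 and 12.1, and Axin2 at 1.02 and 0.189. Of 5 further regulators of α subunits at 1 FPKM or more, Ric8b was more than 2-fold lower in lung (5.04 and 2.11 FPKM), Gpsm3, the most abundant with Ric8a, was at 54.99 and 39.7, and the median was -0.76.

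Of 15 receptors that guide T cell traffic, most of which couple to Gi, 11 were higher in lung as deposited, 5 of them by more than 2-fold, 0 were more than 2-fold lower, and the median log2 ratio was 0.40. With TPM 7 of the 15 were higher, 3 were more than 2-fold higher and 2 lower, and the median was -0.03, so the direction of the list depended on the scaling. The 5 past 2-fold as deposited were Cxcr6 (22.0 FPKM in spleen and 147 in lung), Ccr8 (67.2 and 280.0), P2ry10, a lysophospholipid receptor (35.3 and 116), Ccr4 (12.8 and 31.3) and Ccr6 (28.4 and 63.6). S1pr1, the receptor for egress from lymphoid tissue, was at 244 and 172 FPKM. Ccr7, the most abundant of the 15 in both libraries, was at 311 and 361, and S1pr4, with the lowest ratio, at 54.5 and 28.0.

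Of 16 genes of cAMP signalling, 5 were more than 2-fold higher in lung and 1 lower as deposited, with a median of 0.21. With TPM, 2 were more than 2-fold higher and 2 lower, and the median was -0.22. Crem, whose products include a cAMP-induced repressor, was at 14.1 FPKM in spleen against 197 in lung. The phosphodiesterase genes Pde3b (3.46 and 8.10 FPKM), Pde4d (2.86 and 7.14) and Pde4a (0.811 and 1.83) and the cyclase gene Adcy9 (0.299 and 1.01) were the others higher, and Adcy3 (7.63 and 3.18) was the lower one. The abundant Prkar1a, a regulatory subunit of protein kinase A, was at 194 and 294 FPKM, and Creb1 at 13.2 and 10.3. Whether Rgs2 and Crem were present in the same cells cannot be read from pooled libraries.

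**Figure D5:**
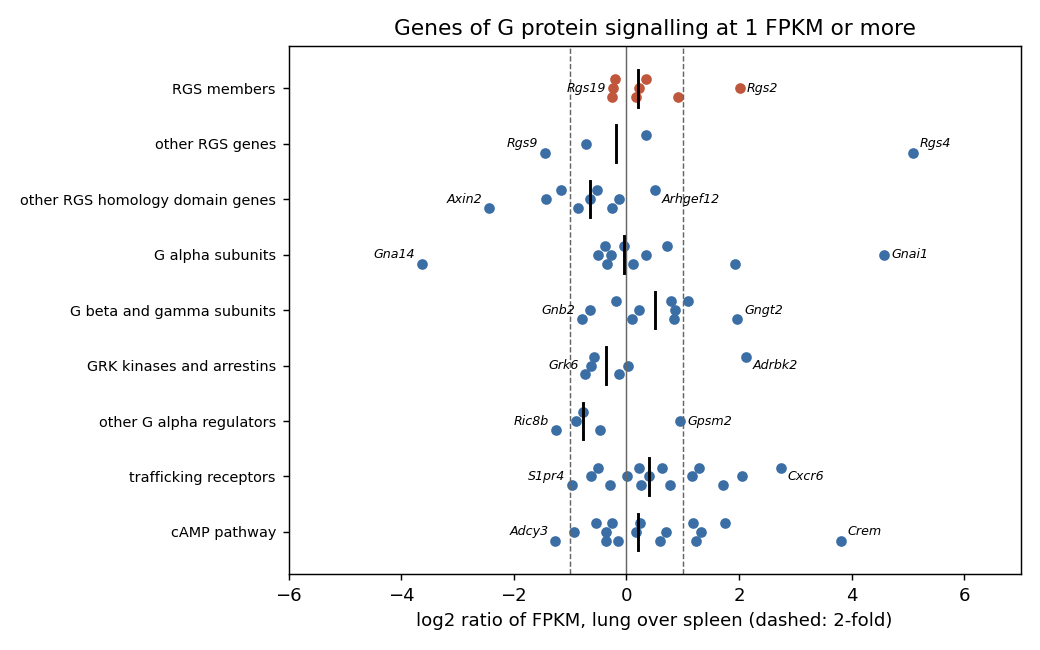
Log2 ratio of FPKM, lung over spleen, of genes reaching 1 FPKM in a library, by list (red, the 8 RGS genes, and blue, other lists), with values under 0.1 FPKM set to 0.1, a black line at each median and the lowest and highest gene named. Adrbk2 is the listed symbol of Grk3. As deposited, the trafficking receptors have a median of 0.40 (-0.03 with TPM) and the RGS homology domain genes a median of -0.64, with the RGS genes between them at 0.20.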

How the data were processed

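Bulk RNA-seq of GFP+CD4+ cells was analysed as 1 library of splenic and 1 of lung Tregs, grouped by the tissue in the labels. The authors made cDNA with SMART-Seq HT, aligned single-end reads of 75 bases with TopHat2 2.1.1, Bowtie2 2.2.8 and SAMtools 0.1.18 on mm10, and deposited FPKM from Cuffdiff 2.2.1. The annotation and the scaling between libraries are not given in the sources used here, and a shallower or differently scaled library moves all ratios together.

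Ratios were taken after setting FPKM under 0.1 to 0.1. Reads were estimated from GENCODE M21 transcripts tied to RefSeq, with a mean fragment of 200, an SD of 80 and a shortest fragment of 73. The product of FPKM and effective length was divided by the worth of 1 read, itself taken from low values of the same libraries. The result fell within 0.1 of a whole number in 72.9% of 2015 genes of 0.5 to 10.5 reads and a single length in spleen. In lung it did so in 75.0% of 1206. The steps were tested on simulated data. With 1 library per tissue no test was run.

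All 8 members were named, and of other lists some of the most abundant genes and some of the extreme ratios. A few further list genes were named after their values were seen. The members and lists were chosen with earlier results of these data known. List genes missing by symbol were matched through RefSeq synonyms (3 genes), and 1, Ly6g, was not matched. One gene of the receptor list is not reported here and was left out of its counts. Other floors, pseudocounts, scalings and a filter at 10 FPKM were tried. The counts of the lists under the scalings were added after seeing the data. The work used scipy 1.17.1, matplotlib 3.10.9, pandas 2.3.3 and numpy 2.4.6 under Python 3.11.15.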

Additional observations from a re-analysis of the deposited data

How the results depend on the processing

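Rgs2 was the only member more than 2-fold higher in lung, and 0 were more than 2-fold lower, with a median ratio of 1, equal upper quartiles and TPM. The same held with a floor of 0.01 or 1 FPKM, a pseudocount of 0.1 or 1 FPKM and a filter at 10 FPKM. Those settings could not have changed these counts, since every member was above 1 FPKM in both libraries and Rgs2 was far above 10 FPKM. Of the settings named so far, only the scalings could have moved them. With the T cell scaling, added after seeing the data, 2 members were higher, and without Rgs2, also added later, 0 were. The median log2 ratio of the members was -0.23 with TPM and 0.43 with the T cell scaling. With TPM, the log2 ratios of Rgs3, Rgs10 and Rgs18 were -0.26, -0.20 and -0.088. With equal upper quartiles Rgs3 was at -0.0075, and with the T cell scaling Rgs16 was at 0.031. Of all genes at 1 FPKM or more, 13.1% were more than 2-fold higher and 25.9% lower with TPM, against 17.8% and 15.5% as deposited. With the T cell scaling the shares were 22.2% and 12.2%. These scalings multiply all ratios by 1 factor each. Relative to all genes at 1 FPKM or more, the members' median was higher by 0.17 with each scaling. Rgs18, with under 60 estimated reads in each library, is the member that depth limits most. No paired analysis was possible because there is 1 library per tissue, and no library could be left out.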

Other observations

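The genes nearest to Rgs2 and Rgs1 in level were looked up over both libraries, as the distance of log2 FPKM among 10051 other genes at 1 FPKM or more in each. With 2 libraries this describes a pair of values and no more. For Rgs2 the nearest was Gngt2 (51.8 FPKM in spleen and 203 in lung, distance 0.04), the G protein γ subunit gene named above, followed by Ifitm2 (45.6 and 197) and Ifrd1 (44.8 and 210). For Rgs1 they were Shfm1 (421 and 736), Ost4 (392 and 690) and the small nucleolar RNA gene Snord35a (378 and 666). For Rgs16 they were Irs2 (12.8 and 11.03), Irf2bp1 (12.6 and 10.9) and Anapc11 (12.5 and 10.996).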
